A study of Arabidopsis thaliana with 18 samples.

Results

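Transcript abundance was measured in rosette leaves of wild-type Arabidopsis thaliana (WT, accession Col-0) that had gone without water and in watered WT plants of the same age, day 32. Every plant was watered for 18 days, after which the drought group received no water for 14 days and the control group stayed watered. The 6 libraries were chosen by the genotype and condition in their labels, 3 of drought (D4, D5 and D6) and 3 of control (C1, C2 and C3), out of 18 in the series. The other libraries came from jar1-11, labelled as a knockdown of JAR1, and from JAR1-OE, an overexpression line of JAR1.1, each with 3 drought and 3 control libraries, and JAR1 makes the active jasmonate hormone JA-Ile. The labels speak of biological replicates without saying whether a replicate was 1 plant or a pool, so p-values here speak of the spread among libraries, which may be technical. Levels are CPM, read counts scaled to library size after TMM, from tags near the 3′ ends of transcripts. Wherever 3 drought and 3 control values are listed they stand in the order D4, D5, D6 and C1, C2, C3.

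Leaves that lose water make the hormone abscisic acid (ABA). ABA closes the stomata and, through ABF transcription factors that bind DNA elements with the core ACGTG, switches on genes for proteins that shield membranes and enzymes as cells dry, among them the dehydrins and other late embryogenesis abundant (LEA) proteins. Long drought is also known to slow growth, to bring forward leaf ageing and to move nitrogen and sugars out of old leaves.

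The WT libraries held 4716155 to 7621352 reads on genes, so that 3 reads stood for 0.394 to 0.636 CPM. Library D4 held flower and pollen transcripts: the 23 flower markers summed to 57.7, 1.00 and 0.452 CPM under drought, against 2.68, 2.59 and 4.35 CPM in controls, and the pollen markers to 106 CPM in D4 and at most 1.82 CPM in any other WT library. Of all genes, 34 stood in D4 at 10 CPM or more and at least 4 times every other WT library, 20 of them left out of the test by the filter on low counts, and among the 34 were the pollen coat protein gene GRP17 (57.9 CPM), the petal and stamen regulator PI (18.5 CPM) and the shoot meristem regulator STM (30.8 CPM). Of the 16 seed and embryo markers, 13 or 14 were at 0 reads in each drought library, the seed storage protein genes among them, and root markers were called lower in 4 of 5 tested. All 8 rosette leaf markers, photosynthesis genes, were called lower (7 without D4, where LHCA1 was at -0.50 with adjusted p = 0.0762, edgeR), and their sum lay at 5221 to 6078 CPM under drought, against 12830 to 17123 CPM in controls. In bulk leaf RNA, fewer cells of a type and less RNA per cell cannot be told apart. Control C1 stood apart from C2 and C3, since the chi-square over genes, divided by its degrees of freedom, was 26.8 and 27.9 against them and 6.53 between C2 and C3.

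Drought changed a large part of the leaf transcriptome. Of 17678 genes tested, 6943 (39.3%) were called at an adjusted p of 0.05 (edgeR quasi-likelihood test over all genes tested), 3207 of them higher under drought (18.1%) and 3736 lower (21.1%). The median log2 fold change over all genes tested was -0.01. Genes called higher made up 352916 CPM under drought and 137621 CPM in controls, and genes called lower made up 174389 CPM under drought and 430705 CPM in controls. A change of at least 1 on the log2 scale was reached by 1601 genes called higher and 2349 called lower, and a change of at least 4 by 212 and 206. The libraries of the groups did not overlap for 8117 genes tested (45.9%). Without D4, 6706 genes were called, and of the 6943, 6175 were called again, all in the same direction.

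The genes that gained most in level were led by RAB18 (AT5G66400), a dehydrin gene switched on by ABA and drying. RAB18 stood at 18691, 29580.5 and 39796 CPM under drought, against 74.7, 72.8 and 218 CPM in controls. The lowest drought library was far above the highest control, C3, and the log2 fold change was 7.91 ± 0.67 (adjusted p = 3.14e-08, edgeR), or 8.65 without C3. DI21, a gene named for its induction by drought, stood at 4637, 8949.6 and 9052 CPM under drought, against 57.3, 44.0 and 57.8 CPM in controls, and the groups were far apart (log2 fold change 7.15 ± 0.36, adjusted p = 4.64e-11, edgeR). LTP3, which encodes a secreted lipid transfer protein, averaged 4407 ± 256 CPM under drought and 79.9 ± 22.9 CPM in controls (SD, n = 3 each), a log2 fold change of 5.79. LEA7, a LEA protein gene, stood at 1310.0, 3309 and 7021 CPM under drought, against 4.91, 0.162 and 25.3 CPM in controls. All drought libraries were above all controls, but both groups were wide, and the log2 fold change of 8.53 ± 1.00 became 10.74 without C3 and 7.78 without D6. MT2A, a metal-binding metallothionein gene, and TCTP, a conserved growth-related gene, were already abundant in watered leaves and rose by less (log2 fold changes 1.22 and 0.82). MT2A averaged 7672 ± 221 CPM under drought and 3288 ± 1058 CPM in controls, and TCTP averaged 6777 ± 293 CPM under drought and 3828 ± 936 CPM in controls (SD, n = 3 each).

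The steepest rises among well-measured genes were in transcripts that were low in watered leaves. SAG29, the sugar exporter gene also called SWEET15, stood at 127, 182 and 179.8 CPM under drought, against 0.223, 0 and 0.421 CPM in controls, with 4 control reads in all. Its log2 fold change was 9.39 ± 0.45, and 10.51 without C3. LTI65, also known as RD29B and a standard reporter of ABA action, stood at 1074, 1752 and 2508 CPM under drought, against 5.35, 1.62 and 11.2 CPM in controls, and every drought library was far above every control (8.16 ± 0.68 on the log2 scale, adjusted p = 2.43e-08, edgeR, and 9.08 without C3). TSPO, a membrane protein gene induced by ABA and osmotic stress, stood at 964, 1275 and 1914 CPM under drought, against 1.56, 2.1 and 9.97 CPM in controls, again with no overlap, and its log2 fold change was 8.16 ± 0.59, or 9.53 without C3. The LEA family gene AT3G17520 and the glycine-rich protein gene AT5G35660 completed the 6 steepest rises, at 8.33 and 8.16 (10.10 and 10.22 without C3, and 7.10 for AT5G35660 without D6). C3 was the control with the highest level for 82 of the 212 genes that rose by at least 4 on the log2 scale, against 44 for C1 and 26 for C2. The same 212 genes summed to 50109, 72190.5 and 91748 CPM under drought, against 948, 687 and 1171 CPM in controls.

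The genes that lost most in level included products of the cell surface and of plastids. ECS1 stood at 563, 348 and 619 CPM under drought, against 9420.0, 8344 and 9164 CPM in controls, with no overlap and narrow groups (log2 fold change -4.14 ± 0.32, adjusted p = 9.89e-09, edgeR). AT2G45180, annotated as a lipid transfer family gene, averaged 165 CPM under drought and 5962 CPM in controls (-5.18 ± 0.35 on the log2 scale). AT2G25510 and AT5G42530 fell, at -2.53 and -3.39 on the log2 scale. THI1, which makes the thiazole part of vitamin B1, averaged 4464 ± 821 CPM under drought and 8969 ± 3541 CPM in controls (SD, n = 3 each; log2 fold change -1.01). PRXR1, a class III peroxidase gene, stood at 6543, 5945 and 4024 CPM under drought, against 21763, 8707 and 10404 CPM in controls; the highest value was in C1, and the call ended without C1 (-1.31 ± 0.35 with it, -0.79 and an adjusted p of 0.0653 without it, edgeR).

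Some growth-related transcripts were close to lost. HBI1, a bHLH transcription factor that promotes cell elongation, stood at 1.03, 0.628 and 0.754 CPM under drought, against 175, 168 and 154 CPM in controls. The drought libraries were close to the floor of 3 reads and the controls were narrow, and the log2 fold change was -7.69 ± 0.32 (adjusted p = 5.79e-12, edgeR). XTH6, an enzyme gene that cuts and rejoins xyloglucan in the growing wall, stood at 2.91, 0.628 and 0 CPM under drought, against 237, 207 and 197 CPM in controls, highest under drought in the library with flower transcripts (-7.58 ± 0.46 on the log2 scale, -9.21 without D4). GER1 (AT1G72610), a germin-like cell wall protein gene, stood at 37.7, 17.6 and 13.3 CPM under drought, against 2502, 3317 and 2668 CPM in controls, without overlap (log2 fold change -6.96 ± 0.44). AT1G27020 and AT5G44020, annotated as an acid phosphatase, fell, at -8.54 and -8.18 on the log2 scale. AT1G15125 fell too, at -7.19 (-6.53 without C1).

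**Figure D1:**
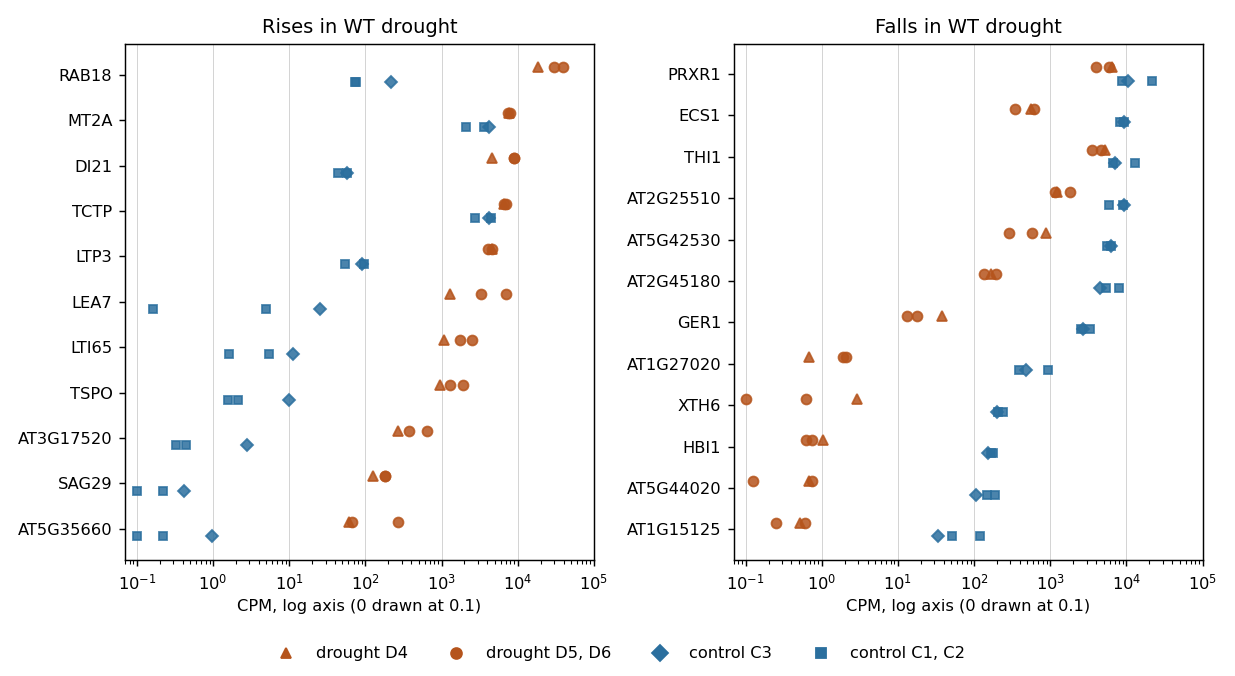
CPM in each WT library, on a log axis, of the genes with the largest differences of level and of fold, with rises on the left and falls on the right. Each point is 1 library, drought libraries drawn above the controls within each row, and 0 is drawn at 0.1 CPM; no gene shown has overlapping groups, and C3 is the control nearest to drought for RAB18, LEA7, LTI65 and TSPO.

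Most dehydrin and other LEA protein genes rose. Of 8 dehydrin genes tested, 6 were called higher and 0 lower, against 18.1% and 21.1% over all genes tested, with a median log2 fold change of 1.6. LTI30 (XERO2), a dehydrin that binds membranes, stood at 1818, 2773 and 3206 CPM under drought, against 174, 90.5 and 204 CPM in controls, and ERD10 at 2279, 2871 and 2797 CPM under drought, against 797, 450.3 and 766 CPM in controls. Neither gene had overlapping groups, and the log2 fold changes were 4.06 ± 0.32 and 1.98 ± 0.25 (adjusted p = 9.50e-09 and 3.33e-06, edgeR). XERO1 rose by 7.27 on the log2 scale (8.12 without C1). Of 11 other LEA and seed-type genes tested, 10 were called higher and 1 lower (median 3.51, or 3.2 with genes at 0 reads set to their bound). EM1 and ECP63, at 0 reads in all controls, could be called in no direction but higher. EM6, RAB28 and M10, with at most 5 reads in either group, were left out by the filter on low counts. LEA14 averaged 1657 ± 332 CPM under drought and 348 ± 89.5 CPM in controls, and SAG21, a mitochondrial LEA protein gene also induced in ageing leaves, averaged 2803 ± 1024 CPM under drought and 558 ± 119 CPM in controls (SD, n = 3 each), at 2.25 and 2.33 on the log2 scale. Seed protein genes were among those with no reads in any control: EM1 was at least 12.5-fold higher and ECP63 at least 9.0-fold higher under drought, where the floor was 3 reads over the group. HSP21, a small heat shock protein of the chloroplast, was at least 43.5-fold higher by the same measure, and these were picked after their values were seen from the 34 genes with 0 reads in all controls and at least 5 in each drought library.

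The CBF and DREB factors switch on cold and dehydration genes, and most genes of their list rose. Of 18 such genes tested, 13 were called higher and 1 lower (median 1.13). KIN1 stood at 637, 1216 and 1132 CPM under drought, against 36.4, 25.4 and 71.6 CPM in controls, without overlap, and RD20, a calcium-binding caleosin gene, averaged 233 ± 58.7 CPM under drought and 41.0 ± 5.72 CPM in controls (SD, n = 3 each; log2 fold changes 4.48 ± 0.47 and 2.51 ± 0.29). KIN2, a close copy of KIN1, moved the other way, at 3134 CPM under drought and 7447 CPM in controls on average (-1.25 ± 0.25, adjusted p = 6.57e-04, edgeR). COR15A rose and COR15B fell in the LEA list, with log2 fold changes of 2.09 and -2.61; only uniquely placed reads were given, so both pairs of similar genes are uncertain. DREB1A, one of the factors, rose by 3.63 on the log2 scale (4.83 without C3).

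The ACGTG core bound by ABF factors was searched in RefSeq promoters (TAIR10.1). The windows, 250 bases before to 50 after each gene's start, were read on both strands for ACGTG, so that CACGTG counts as a match on each strand. RAB18, LTI65, LEA7 and TSPO, which rose, and XTH6, which fell, are shown as examples. Other genes with steep rises, SAG29 among them, are not shown. Sequences run 5′ to 3′ on the gene's own strand, as the 250 bases before the start. Capitals mark ACGTG or, for a match on the other strand, CACGT.
RAB18, chr5:26519448-26519697, minus strand: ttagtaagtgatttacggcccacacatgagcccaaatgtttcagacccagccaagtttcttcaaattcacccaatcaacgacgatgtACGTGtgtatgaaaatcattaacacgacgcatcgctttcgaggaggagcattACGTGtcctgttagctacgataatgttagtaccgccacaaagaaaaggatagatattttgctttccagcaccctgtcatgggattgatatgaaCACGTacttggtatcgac
LTI65, chr5:21236771-21237020, plus strand: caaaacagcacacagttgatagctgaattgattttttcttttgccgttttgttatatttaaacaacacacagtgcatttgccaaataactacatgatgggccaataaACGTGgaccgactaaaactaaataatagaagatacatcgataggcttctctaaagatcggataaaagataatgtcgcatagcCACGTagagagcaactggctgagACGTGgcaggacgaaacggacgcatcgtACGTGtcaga
LEA7, chr1:19619474-19619723, plus strand: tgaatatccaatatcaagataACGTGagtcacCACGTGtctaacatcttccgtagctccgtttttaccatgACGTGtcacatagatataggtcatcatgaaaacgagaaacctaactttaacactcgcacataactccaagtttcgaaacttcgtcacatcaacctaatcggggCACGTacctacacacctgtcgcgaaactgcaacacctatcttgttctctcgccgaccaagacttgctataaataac
TSPO, chr2:19568214-19568463, plus strand: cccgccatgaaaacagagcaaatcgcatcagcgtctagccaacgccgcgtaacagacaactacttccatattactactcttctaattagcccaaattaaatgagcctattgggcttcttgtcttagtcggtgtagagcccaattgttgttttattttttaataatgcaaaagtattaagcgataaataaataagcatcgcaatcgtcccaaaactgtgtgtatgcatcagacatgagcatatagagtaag
XTH6, chr5:26298478-26298727, plus strand: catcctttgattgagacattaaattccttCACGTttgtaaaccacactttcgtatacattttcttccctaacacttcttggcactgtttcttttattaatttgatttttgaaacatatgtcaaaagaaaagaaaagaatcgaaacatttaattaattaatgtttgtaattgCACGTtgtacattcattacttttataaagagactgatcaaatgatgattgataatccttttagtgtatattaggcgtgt

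The RAB18 promoter held 3 matches, 18 to 163 bases before the start, and the LTI65 promoter held 4, from 10 to 143 bases before it. LEA7 held 5 matches between 76 and 229 bases before the start, 2 of which are the strands of 1 CACGTG. TSPO held 0 in the bases printed and 2 in the whole window. XTH6, which fell, held 2 matches, 79 and 221 bases before the start. Of the 212 genes that rose by at least 4 on the log2 scale, 137 (64.6%) had ACGTG in the window, against 37.2% of all genes called higher, 24.1% of genes called lower, 26.8% of genes tested and not called and 26.7% of all 27443 promoters. At least 2 matches were present in 44.8% of the 212 and in 10.7% of all promoters. A single CACGTG gives 2 matches by itself, so these shares are not of promoters with separate elements. CACGTG was present in 33.0% of the 212, 13.8% of genes called higher, 6.81% of genes called lower and 7.68% of all promoters. CCGAC, the core bound by CBF and DREB factors, was present in 20.2% of genes called higher, 13.7% of genes called lower and 15.0% of all promoters. TTGAC, the core bound by WRKY factors, was present in 50.9%, 51.3% and 50.5% of the same sets. The median GC content was 33.7% in the windows of the 212 genes and 32% over all promoters. These are matches of letters, given without a test, and say nothing of whether a factor is bound.

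**Figure D2:**
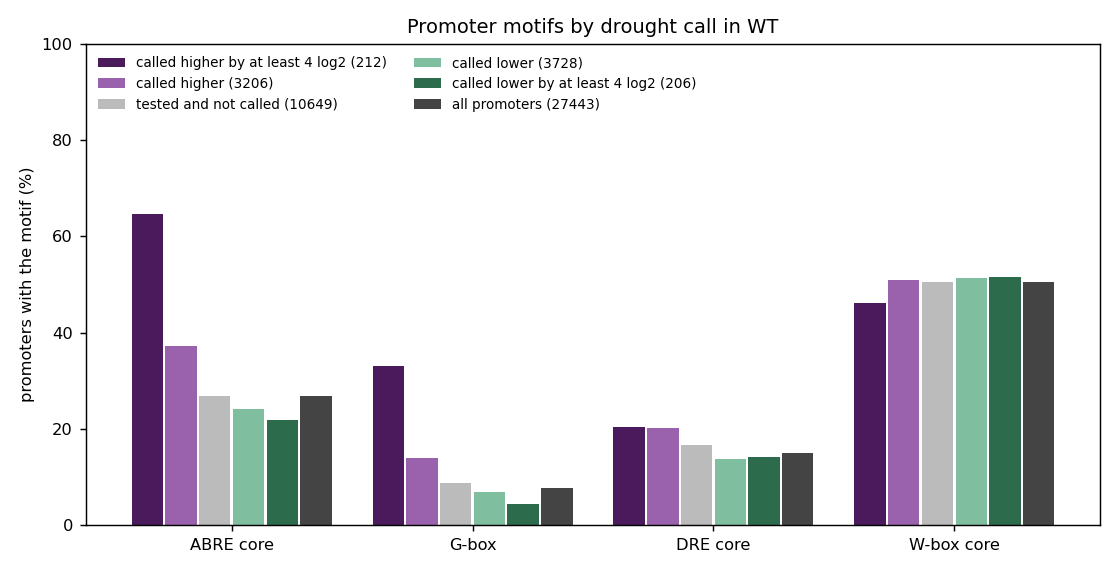
Percent of promoter windows holding each motif on either strand, by call in drought against control WT leaves, with the number of promoters in each set in brackets; the ABRE core is ACGTG, the G-box CACGTG, the DRE core CCGAC and the W-box core TTGAC. The first reaches 64.6% in the genes that rose by at least 4 on the log2 scale and 26.7% over all promoters, while the W-box core lies between 46.2% and 51.5% in every set.

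Genes for the ABF factors and SnRK2 kinases, which carry the ABA signal to its targets, were mostly called higher. Of 16 ABF and SnRK2 kinase genes tested, 11 were called higher and 1 lower (median 0.70). GBF3, a bZIP factor that binds G-boxes, stood at 111, 103 and 92.2 CPM under drought, against 6.69, 8.08 and 6.74 CPM in controls. The groups were narrow and far apart, with a log2 fold change of 3.82 ± 0.16 (adjusted p = 5.52e-12, edgeR). ABF2 averaged 165 ± 10.7 CPM under drought and 24.2 ± 6.08 CPM in controls, and ABF3 averaged 65.4 ± 4.87 CPM under drought and 16.7 ± 4.24 CPM in controls (SD, n = 3 each), log2 fold changes of 2.78 and 1.95. ABI5, best known from seeds, stood at 16.1, 7.16 and 12.5 CPM under drought, against 2.68, 2.43 and 3.37 CPM in controls (2.05 ± 0.39 on the log2 scale).

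NAC and HD-Zip I factors, families with known stress and ageing members, moved in both directions. Of 20 stress and senescence NAC genes tested, 9 were called higher and 3 lower (median 0.55; 5 higher without D6). NAC032 stood at 41.5, 53.4 and 56.7 CPM under drought, against 2.23, 2.75 and 2.81 CPM in controls, and RD26 at 549.6, 871 and 869.9 CPM under drought, against 161, 79.4 and 55.6 CPM in controls. Both were higher in each drought library than in any control, and the log2 fold changes were 4.26 ± 0.28 and 2.96 ± 0.29 (adjusted p = 9.98e-10 and 2.06e-07, edgeR). NAC019 and ATAF1 rose by 2.98 and 2.72 on the log2 scale. Of 11 HD-Zip I genes tested, 4 were called higher and 5 lower (median -0.40, or -0.82 without D4). The summed level of the list nevertheless rose, at 1982, 2208 and 2399 CPM under drought, against 1191, 816 and 1091 CPM in controls. HB5 stood at 44.5, 36.3 and 22.2 CPM under drought, against 101, 97.3 and 125 CPM in controls, and AtHB23 at 2.06, 1.88 and 1.51 CPM under drought, against 10.3, 7.6 and 10.9 CPM in controls. Both fell without overlap (-1.65 ± 0.22 and -2.39 ± 0.32), while HB21, at 0 reads in all controls, was at least 9.58-fold higher under drought.

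Heat shock factors, which switch on chaperone genes, were called higher in 7 and lower in 2 of 18 tested (median 0.27). The share called was 50%, against 39.3% of all genes tested. HSFC1 stood at 94.2, 82.3 and 77.2 CPM under drought, against 2.90, 3.23 and 6.74 CPM in controls, without overlap (log2 fold change 4.25 ± 0.27, adjusted p = 9.01e-10, edgeR). HSFA6A had 2 reads in the controls and 1039 under drought, a pooled ratio of 452-fold (95% interval 125 to 3740.4); both control reads were in C1. HSFA7A moved down, at 0.514, 0.502 and 1.21 CPM under drought, against 9.81, 8.73 and 6.74 CPM in controls (-3.47 ± 0.34). WRKY factors, many of which act in defence, were mostly lower where they were called: of 52 tested, 17 were called lower and 3 higher (median -0.47, with 14 lower and 5 higher without D4). Their share called, 38.5%, was near the 39.3% of all genes tested. WRKY18 averaged 23.0 ± 6.88 CPM under drought and 107 ± 22.8 CPM in controls, and WRKY54 averaged 5.86 ± 2.42 CPM under drought and 25.1 ± 8.23 CPM in controls (SD, n = 3 each), log2 fold changes of -2.21 and -2.11. WRKY7 and WRKY26 fell, at -2.36 and -2.55 on the log2 scale.

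**Figure D3:**
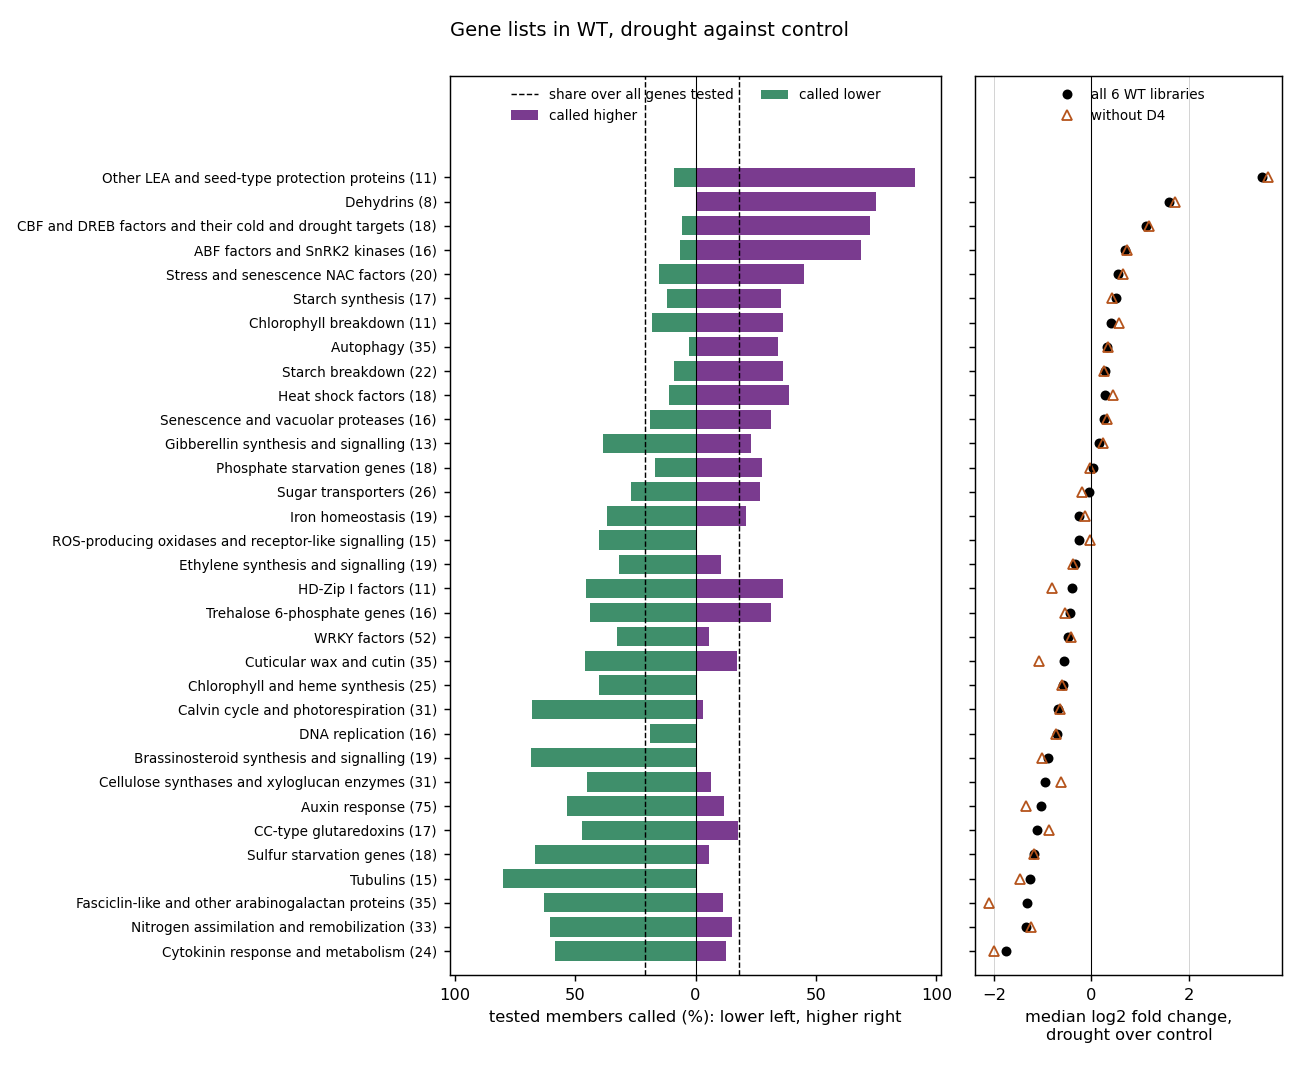
Gene lists by the percent of tested members called lower (bars to the left) and higher (bars to the right) under drought, with the number tested in brackets and dashed lines at the shares over all genes tested, and beside them the median log2 fold change with and without D4. LEA proteins and dehydrins stand at the top and cytokinin, nitrogen and arabinogalactan protein lists at the bottom; without D4 the median of the arabinogalactan protein list is -2.1 in place of -1.33.

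Chlorophyll synthesis genes were lower where they were called, and breakdown genes were mixed. Of 25 chlorophyll and heme synthesis genes tested, 0 were called higher and 10 lower (median -0.58, with 1 higher without C2). The share called in either direction, 40%, was near the 39.3% of all genes tested. CHLM, a methyltransferase of the magnesium branch, stood at 39.4, 37.3 and 32.7 CPM under drought, against 109, 96.8 and 72.3 CPM in controls, and HEMA1, the entry enzyme of the pathway, at 51.6, 39.2 and 30.9 CPM under drought, against 104, 70.2 and 64.8 CPM in controls. Neither overlapped between groups, and the log2 fold changes were -1.34 ± 0.19 and -0.97 ± 0.19 (adjusted p = 2.06e-05 and 4.71e-04, edgeR). CHLI1, a subunit of magnesium chelatase, fell, at -1.1 on the log2 scale. Of 11 breakdown genes tested, 4 were called higher and 2 lower (median 0.41), a share called of 54.5%. ACD1, the pheophorbide a oxygenase that opens the chlorophyll ring, stood at 62.7, 87.0 and 104 CPM under drought, against 12, 24.3 and 23.9 CPM in controls, and NYE2 (AT4G11910), a stay-green protein gene, averaged 52.6 ± 16.1 CPM under drought and 16.0 ± 5.01 CPM in controls (SD, n = 3 each). The log2 fold changes were 2.06 ± 0.23 and 1.7 ± 0.29. SGRL (AT1G44000) and the chlorophyllase CLH1, also placed in this list, fell, at -1.55 and -1.43 on the log2 scale.

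Autophagy genes, which package cell contents for breakdown in the vacuole, were mostly higher where they were called, in small steps. Of 35 tested, 12 were called higher and 1 lower (median 0.31), a share called of 37.1%, near the 39.3% of all genes tested. Without D5 and without D6, 8 were called higher, and 2 were called lower without D6 or C3. ATG1A (AT3G61960), a kinase that starts the process, stood at 45.2, 50.3 and 57.5 CPM under drought, against 24.3, 22.1 and 23.0 CPM in controls, and ATG8G at 42.1, 39.4 and 43.7 CPM under drought, against 20.3, 21.2 and 21.3 CPM in controls. Each was higher in all drought libraries than in any control, with log2 fold changes of 1.14 ± 0.17 and 0.99 ± 0.15 (adjusted p = 3.57e-05 and 3.78e-05, edgeR). ATG8E was the member called lower, at 31.2, 27.6 and 24.6 CPM under drought, against 61.8, 90.2 and 75.4 CPM in controls (-1.45 ± 0.19). Of 16 senescence and vacuolar proteases tested, 5 were called higher and 3 lower (median 0.27), a share called of 50%. BETA-VPE, a vacuolar processing enzyme gene, averaged 103 ± 6.23 CPM under drought and 14.5 ± 2.95 CPM in controls and ALP, an aleurain-like protease gene, averaged 1986 ± 134 CPM under drought and 797 ± 151 CPM in controls (SD, n = 3 each), log2 fold changes of 2.83 and 1.32. The subtilase SASP (AT3G14067) rose by 1.06 and RD21B fell by 1.06 on the log2 scale. SAG12, a standard marker of ageing leaves, stood at 0, 0.251 and 1.51 CPM under drought, against 2.23, 0.323 and 4.35 CPM in controls and was not called.

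More starch genes rose than fell, on both sides of the pathway. Of 17 starch synthesis genes tested, 6 were called higher and 2 lower (median 0.51), and of 22 breakdown genes 8 were called higher and 2 lower (median 0.28). The shares called were 47.1% and 45.5%, against 39.3% of all genes tested. APL4 and APL3 are large subunits of ADP-glucose pyrophosphorylase, the committed step of synthesis. APL4 stood at 51.2, 62 and 83.1 CPM under drought, against 1.56, 3.07 and 4.35 CPM in controls, and APL3 at 78.3, 82.5 and 69.5 CPM under drought, against 6.91, 14.1 and 22.7 CPM in controls, both without overlap (log2 fold changes 4.38 ± 0.35 and 2.36 ± 0.27, adjusted p = 1.11e-08 and 1.36e-06, edgeR). GPT2, which carries glucose 6-phosphate into plastids, rose by 3.38 and PGI1 fell by 1.00 on the log2 scale. On the breakdown side, the beta-amylase BAM1 (AT3G23920) stood at 208, 247 and 290.0 CPM under drought, against 73.4, 65.8 and 73.6 CPM in controls, while BAM3, the beta-amylase of night-time leaf starch, stood at 10.8, 6.15 and 4.37 CPM under drought, against 39.7, 16.3 and 25.3 CPM in controls. Neither overlapped between groups, and the log2 fold changes were 1.81 ± 0.18 and -1.93 ± 0.34 (adjusted p = 2.54e-07 and 1.43e-04, edgeR). The phosphatases LSF2 and SEX4, which free starch of phosphate, rose by 1.37 and 1.17 on the log2 scale.

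Sugar transporter genes split evenly, with 7 of 26 tested called higher and 7 lower (median -0.04). The share called was 53.8%, against 39.3% of all genes tested. SWEET4, a sugar transporter gene, stood at 63.6, 78.7 and 75.4 CPM under drought, against 4.01, 4.20 and 4.35 CPM in controls, and the hexose importer gene STP1 at 37.2, 39.4 and 50.8 CPM under drought, against 804, 523 and 390.1 CPM in controls. The groups of both were far apart, in opposite directions (log2 fold changes 4.10 ± 0.25 and -3.75 ± 0.29, adjusted p = 4.95e-10 and 7.41e-09, edgeR). ERD6, a sugar transporter gene named for an early response to dehydration, averaged 105 ± 13.2 CPM under drought and 687 ± 137 CPM in controls (SD, n = 3 each), a log2 fold change of -2.7. Trehalose 6-phosphate is a signal of sugar supply. Of 16 genes of its metabolism tested, 5 were called higher and 7 lower (median -0.45), a share called of 75%. The phosphatase gene ATTPPA stood at 0.343, 0.126 and 0.302 CPM under drought, against 8.70, 9.54 and 9.40 CPM in controls, and TPPF at 7.37, 12.1 and 18.4 CPM under drought, against 0.446, 3.23 and 1.97 CPM in controls, without overlap in either case (-5.13 ± 0.48 and 2.66 ± 0.44). TPPH, TPS9 and TPS7 fell, at -3.59, -2.45 and -1.5 on the log2 scale.

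Most Calvin cycle and photorespiration genes fell. Of 31 tested, 1 was called higher and 21 lower (median -0.68), and the higher call ended without D5, D6 or C1. PRK, the phosphoribulokinase that renews the carbon dioxide acceptor, stood at 209.7, 211 and 179 CPM under drought, against 888, 686 and 633 CPM in controls, and GOX2, the glycolate oxidase of photorespiration, at 184, 199.7 and 192 CPM under drought, against 759, 709 and 648 CPM in controls. Every drought library was below every control (log2 fold changes -1.88 ± 0.18 and -1.88 ± 0.14, adjusted p = 1.18e-07 and 7.65e-09, edgeR). The Rubisco activase gene RCA and the transketolase gene AT3G60750 fell, at -1.8 and -1.01 on the log2 scale. These falls went with that of the rosette leaf markers, among which RCA is itself counted, and the part of either in the other was not tested.

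Few organelle-encoded transcripts were called. Of 71 chloroplast-encoded genes tested, 1 was called higher and 6 lower (median -0.13), against 0 higher and 8 lower without D4, and chloroplast-encoded genes held 4.97, 4.10 and 4.27% of reads under drought, against 5.2, 4.67 and 5.25% in controls. The ATP synthase subunit gene ATPE averaged 5614 ± 391 CPM under drought and 10093 ± 3235 CPM in controls (SD, n = 3 each), the highest value being in C1 (log2 fold change -0.85 ± 0.20, adjusted p = 0.00236, edgeR). CCSA, NDHA and RPOA fell, at -0.66, -0.66 and -0.49 on the log2 scale, and RPS18 was the member called higher. The calls of RPOA and RPS18 ended without D4 (adjusted p = 0.0917 and 0.0661, edgeR). Of 22 mitochondrion-encoded genes tested, 0 were called, and their reads made up at most 0.0480% of a library. Kits of this kind prime on poly(A) tails, which most organelle transcripts lack, so these values describe a small and selected share of organelle RNA.

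The nitrogen list, of uptake, assimilation and remobilization genes, was among the lists with the most falls. Of 33 genes tested, 20 were called lower and 5 higher (median -1.36). NRT1.1, the dual-affinity nitrate transporter and sensor, stood at 11.6, 14.6 and 7.69 CPM under drought, against 196, 255 and 257 CPM in controls, and GLU1, the ferredoxin-dependent glutamate synthase, at 42.5, 37.8 and 35.6 CPM under drought, against 118, 153 and 160.2 CPM in controls. The groups did not overlap for either gene (log2 fold changes -4.38 ± 0.29 and -1.90 ± 0.16, adjusted p = 1.55e-09 and 3.38e-08, edgeR). NIR1 and NIA2, which reduce nitrite and nitrate, fell, at -2.89 and -2.5 on the log2 scale. Amino acid permeases moved both ways: AAP6 stood at 3.77, 4.39 and 1.66 CPM under drought, against 30.3, 54.0 and 67.0 CPM in controls, while AAP1 averaged 222 CPM under drought and 61.5 CPM in controls (log2 fold changes -3.93 ± 0.31 and 1.85 ± 0.15, in that order).

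Other nutrient lists were mixed. Of 18 sulfur starvation genes tested, 12 were called lower and 1 higher (median -1.18). LSU2, a small protein gene used as a marker of low sulfur, stood at 3.43, 2.76 and 2.11 CPM under drought, against 10.5, 16.5 and 17.5 CPM in controls; the sulfate transporter gene SULTR3;1 rose by 1.42 on the log2 scale while SULTR2;1 and AST56 (SULTR2;2) fell, at -1.87 and -2.16. LSU2 fell by 2.44 on the same scale, with no overlap of the groups. Of 19 iron genes tested, 4 were called higher and 7 lower (median -0.25), a share called of 57.9%, against 39.3% of all genes tested. FER1, the iron store ferritin, stood at 271, 367 and 503 CPM under drought, against 66.2, 79.2 and 70.3 CPM in controls, and OPT3, a phloem iron transporter gene, at 14.4, 11.4 and 13.3 CPM under drought, against 70.7, 68.1 and 72.0 CPM in controls. FER1 rose and OPT3 fell (2.4 ± 0.22 and -2.43 ± 0.18, adjusted p = 6.41e-08 and 6.72e-09, edgeR), and FRO6, a ferric reductase gene of the shoot, fell by 2.44 on the log2 scale. Of 18 phosphate starvation genes tested, 5 were called higher and 3 lower (median 0.03). Their share called, 44.4%, was near the 39.3% of all genes tested. The acid phosphatase PAP17 averaged 149 ± 54.5 CPM under drought and 26.6 ± 12.2 CPM in controls (SD, n = 3 each). The phosphate sensor SPX1 averaged 19.7 ± 5.04 CPM under drought and 6.75 ± 0.362 CPM in controls (SD, n = 3 each). The log2 fold changes were 2.48 and 1.53. Of 17 CC-type glutaredoxins, small redox proteins that act with TGA factors, 8 were called lower and 3 higher (median -1.12). GRXC6 (AT4G33040) and GRXC12 (AT2G47870) rose by 2.33 and 2.23 and GRXS2 (AT5G18600) fell by 1.43 on the log2 scale.

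Many genes that build and loosen the growing cell wall fell. Of 31 cellulose synthase and xyloglucan enzyme genes tested, 14 were called lower and 2 higher (median -0.95, or -0.63 without D4; 1 higher without D5). XTH4 stood at 25.2, 12.1 and 11.9 CPM under drought, against 153, 218 and 154 CPM in controls, and XTH24 at 10.1, 11.7 and 10.3 CPM under drought, against 139, 162 and 103 CPM in controls. Both were far lower in every drought library than in any control (log2 fold changes -3.43 ± 0.26 and -3.65 ± 0.35, adjusted p = 5.91e-09 and 1.43e-07, edgeR), and XTH7 fell, at -4.6 on the log2 scale (-5.95 without D4). XTH33, at 0 reads in all drought libraries, was at least 44.8-fold lower, and so was SDD1, a protease that limits stomatal number, by at least 12.6-fold; both were picked after their values were seen from 21 such genes. Of 35 fasciclin-like and other arabinogalactan protein genes, cell surface glycoproteins, 22 were called lower and 4 higher (median -1.33). Without D4, the library with flower and pollen transcripts, 22 were called lower and 2 higher (median -2.1), and 2 were also called higher without C1 or without C2. FLA13 stood at 22.8, 20.1 and 22.6 CPM under drought, against 358, 543 and 459 CPM in controls (-4.38 ± 0.25), with no overlap, and AGP7, FLA9 and FLA2 fell, at -6.58, -6.55 and -5.76 on the log2 scale (-7.38 for AGP7 and -6.53 for FLA2 without D4, -5.94 for FLA9 without C2).

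Most tubulin genes fell. Of 15 tubulin genes tested, 12 were called lower and 0 higher (median -1.26). TUA5 stood at 36.1, 35.9 and 27.4 CPM under drought, against 215, 142 and 127 CPM in controls, and TUB5 at 23.3, 17.8 and 11.6 CPM under drought, against 148, 133 and 124 CPM in controls. There was no overlap (log2 fold changes -2.28 ± 0.20 and -2.94 ± 0.28, adjusted p = 5.37e-08 and 1.27e-07, edgeR), and TUB4 and TUA3 fell, at -1.86 and -2.07 on the log2 scale. Several tubulin genes are near copies, and reads that fit more than 1 gene were not counted. Of 16 DNA replication genes tested, 3 were called lower, a share close to the 21.1% over all genes, and 0 higher (median -0.70). PCNA1, the sliding clamp of the replication fork, stood at 1.37, 1.13 and 0.754 CPM under drought, against 4.91, 5.66 and 3.51 CPM in controls, and PRL (MCM7), a helicase subunit gene, fell by 1.38 on the log2 scale. MCM4 fell, at -1.24, and its call ended without C1 (-0.73, adjusted p = 0.0635, edgeR).

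Wax and cutin genes, which seal the leaf surface, changed in part upward and in larger number downward. Of 35 tested, 6 were called higher and 16 lower (median -0.57), and without D4 6 were called higher and 21 lower (median -1.07). Fewer were called lower without D5 (7 higher and 12 lower, median -0.31) and without D6 (6 higher and 11 lower, median -0.34). CER1, an enzyme of alkane formation in wax, stood at 68.7, 41.9 and 51.9 CPM under drought, against 6.24, 4.04 and 8.98 CPM in controls, and GPAT8, an acyltransferase of cutin synthesis, at 1.20, 0.879 and 0.603 CPM under drought, against 16.1, 18.8 and 15.3 CPM in controls. CER1 rose and GPAT8 fell without overlap (log2 fold changes 3.06 ± 0.34 and -4.21 ± 0.32, adjusted p = 9.17e-07 and 6.64e-09, edgeR). KCS3 and the wax ester synthase gene WSD6 (AT3G49210) rose by 2.71 and 1.62 on the log2 scale. MAH1, the mid-chain alkane hydroxylase of stem wax listed as CYP96A15, was at 15.6 CPM in D4 and at most 3.51 CPM in any other WT library. The flower markers were also highest in D4, and their part in this list was not tested.

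**Figure D4:**
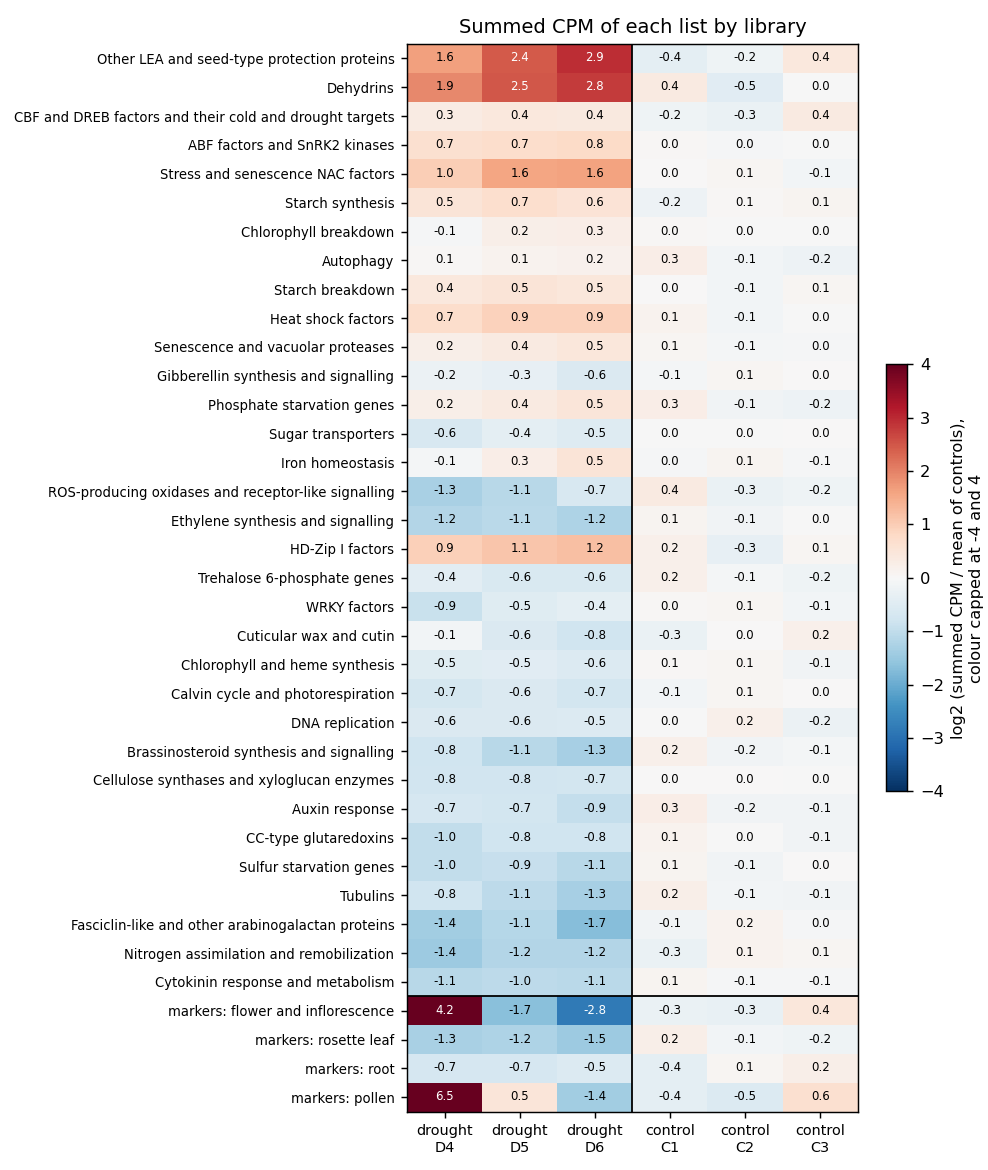
Summed CPM of each gene list in each library over the mean of the controls, on a log2 scale, drought libraries on the left and controls on the right, with the marker lists at the bottom and the colour capped at -4 and 4. The flower and pollen markers stand above every control in D4 and in no other drought library, and the LEA and dehydrin lists are raised in all 3 drought libraries.

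Across genes, D4 lay slightly nearer to the controls than the other drought libraries did. Over 3950 genes called with a change of at least 1 on the log2 scale, its median position was 0.914, where 0 is the control mean and 1 the drought mean, with D5 at 1.01 and D6 at 1.08, and D4 was the drought library nearest to the controls for 55.6% of these genes.

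Auxin response genes were mostly lower. Of 75 tested, 40 were called lower and 9 higher (median -1.04). The SAUR genes, short-lived transcripts that promote cell expansion, supplied the members with the smallest p. SAUR78 (AT1G72430) stood at 20.9, 21.2 and 14.9 CPM under drought, against 322, 207 and 199 CPM in controls, and SAUR14 (AT4G38840) at 5.65, 6.03 and 4.98 CPM under drought, against 30.8, 64.2 and 44.2 CPM in controls. Both fell without overlap (log2 fold changes -3.67 ± 0.21 and -3.06 ± 0.25, adjusted p = 2.17e-10 and 1.64e-08, edgeR). SAUR62 (AT1G29430) and SAUR16 (AT4G38860) fell, at -3.39 and -3.79 on the log2 scale (-4.51 for SAUR16 without D4).

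Most cytokinin genes tested were called lower. Of 24 tested, 14 were called lower and 3 higher (median -1.76; 2 higher without D4). ARR4, a response regulator induced by cytokinin, stood at 13.5, 20.2 and 18.7 CPM under drought, against 105, 126 and 119 CPM in controls, and CKX6, a cytokinin-degrading oxidase gene, at 0.514, 0.753 and 0.452 CPM under drought, against 18.1, 12.8 and 12.2 CPM in controls. Both fell without overlap (log2 fold changes -2.73 ± 0.17 and -4.56 ± 0.37, adjusted p = 7.55e-10 and 1.47e-08, edgeR), and RR16 fell by 3.75 on the log2 scale. IPT3, an enzyme gene of cytokinin synthesis, had 2 reads under drought and 236 in controls, a pooled ratio of 136-fold (95% interval 37.1 to 1125) in favour of the controls. Synthesis, response and degradation genes were thus all among the members called lower.

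Brassinosteroid genes were called in 1 direction. Of 19 tested, 13 were lower and 0 higher (median -0.88; 10 lower without D4 and 1 higher without C3). BRI1, the receptor, stood at 31.3, 22.1 and 22.9 CPM under drought, against 109, 60.8 and 77.1 CPM in controls, and BIN2, the kinase that restrains the pathway, at 34.4, 32.3 and 28.7 CPM under drought, against 62, 79.5 and 69.1 CPM in controls. Neither overlapped (log2 fold changes -1.69 ± 0.21 and -1.14 ± 0.14, adjusted p = 4.01e-06 and 4.10e-06, edgeR). BEE1, an early response factor, and BR6OX2, an enzyme of the last steps of synthesis, fell, at -4.33 and -3.12 on the log2 scale (-4.97 for BEE1 without D5, -3.75 for BR6OX2 without D4).

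Gibberellin genes went both ways: of 13 tested, 3 were called higher and 5 lower (median 0.15), and 3 were called lower without D6, C2 or C3. Their share called was 61.5%, against 39.3% of all genes tested. The DELLA repressors of growth went different ways, with RGL3 averaging 7.45 ± 2.81 CPM under drought and 1.68 ± 0.381 CPM in controls and GAI averaging 35.8 ± 4.39 CPM under drought and 81.7 ± 18.9 CPM in controls (SD, n = 3 each), log2 fold changes of 2.17 ± 0.38 and -1.19 ± 0.17. RGL1 fell, at -1.56 on the log2 scale (-2.2 without D4). Ethylene genes were called higher in 2 and lower in 6 of 19 tested (median -0.34; 4 lower without D6), a share called of 42.1%, near the 39.3% of all genes tested. ACS2, which makes the precursor of ethylene, rose by 3.27 on the log2 scale (4.38 without C1), and EIL1, a factor of the response, fell by 1.04.

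Of 15 genes for oxidases that make reactive oxygen and receptor-like signalling tested, 6 were called lower and 0 higher (median -0.26, with 1 higher without D4). The share called, 40%, was near the 39.3% of all genes tested. The call of RLP23 ended without C1, D4 or D5. FLS2 (AT5G46330), the flagellin receptor, stood at 9.42, 6.78 and 5.58 CPM under drought, against 49.3, 33.0 and 38.9 CPM in controls, and SOBIR1, a kinase that partners receptor-like proteins, at 40.9, 48.8 and 81.7 CPM under drought, against 332, 181 and 155 CPM in controls. The groups did not overlap (log2 fold changes -2.48 ± 0.23 and -1.96 ± 0.31, adjusted p = 7.34e-08 and 5.70e-05, edgeR). WAK2, a wall-associated kinase gene, and BIR1 fell, at -1.79 and -1.16 on the log2 scale.

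The drought response of WT was set against those of jar1-11 and JAR1-OE by testing the difference of responses, drought over control in WT minus drought over control in the other line. Both differences use the same 6 WT libraries. Against jar1-11, 2761 of 17678 genes tested (15.6%) were called, 1526 with the more positive response in WT (8.63%) and 1235 with the more negative (6.99%), and 1704 were called without D4. BGLU18, a beta-glucosidase gene of the endoplasmic reticulum, stood in WT at 1060.4, 567 and 259 CPM under drought, against 219, 269 and 237 CPM in controls. In jar1-11 it stood at 4.03, 1.90 and 20.0 CPM under drought, against 246, 275 and 299.6 CPM in controls. Drought libraries of jar1-11 were thus far below all others, and the difference was 6.45 ± 0.74 on the log2 scale (adjusted p = 1.37e-04, edgeR). AT3G28220 and the myrosinase-binding protein gene MBP1 followed, with differences of 6.11 and 5.55. In jar1-11, AT3G28220 stood at 0, 0 and 1.05 CPM under drought, near the floor of 3 reads, against 6.52, 8.33 and 6.87 CPM in controls. In WT it stood at 24.5, 25.4 and 6.79 CPM under drought, against 7.14, 8.41 and 5.19 CPM in controls. BGLU18 was called higher under drought in WT alone with all libraries, but not without D4 (log2 fold change 0.78, adjusted p = 0.192, edgeR) nor without C1, C2 or C3. AT5G14330, AT1G30700 and AT2G36780 had the most negative differences, -4.99, -4.77 and -4.72. In jar1-11 they averaged 11.8, 103 and 95.6 CPM under drought, against 0.458, 1.61 and 1.23 CPM in controls. In WT they averaged 0.282, 6.54 and 6.81 CPM under drought, against 0.391, 2.89 and 2.48 CPM in controls. The large change was thus a rise in jar1-11, and AT5G14330 was near the floor of 3 reads in WT. The call of AT5G14330 ended without C2 (-3.85, adjusted p = 0.218, edgeR) and that of AT2G36780 without C2 (-4.26, 0.0606). That of AT1G30700 ended without C1, C2, C3, D4 or D6, with adjusted p-values of 0.0644 to 0.124 in edgeR, and with limma-voom (-4.81, adjusted p = 0.108).

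Against JAR1-OE, 1062 of 17678 genes tested (6.01%) were called, 310 with the more positive response in WT (1.75%) and 752 with the more negative (4.25%), and 627 were called without D5 and 578 without D6. DI21, whose WT values are given above, stood in JAR1-OE at 624, 921 and 1043 CPM under drought, against 91.7, 57.8 and 96.6 CPM in controls. Each drought library was above each control in both lines, and the difference in favour of WT was 3.76 ± 0.41 on the log2 scale (adjusted p = 7.18e-05, edgeR). THA1, a threonine aldolase gene, and EGY3, a plastid protease-like gene, had differences of 3.75 and 3.63 (5.08 for THA1 without C2 and 4.24 for EGY3 without C3). ACD6, which acts with salicylic acid in defence, stood in WT at 34.3, 15.6 and 34.5 CPM under drought, against 442, 455 and 539 CPM in controls. In JAR1-OE it stood at 276, 202 and 254 CPM under drought, against 232, 214 and 200.1 CPM in controls. The fall was thus seen in the WT libraries, and the difference was -4.28 ± 0.34 (adjusted p = 2.37e-06, edgeR). AT1G27020 and the thionin gene AT1G66100 had differences of -4.56 and -4.46. In WT, AT1G66100 stood at 0.343, 0.879 and 0.905 CPM under drought, near the floor of 3 reads, against 105, 54.0 and 54.7 CPM in controls. Each altered genotype is a single line in the labels, so an effect of JAR1 and other differences of that line cannot be told apart.

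**Figure D5:**
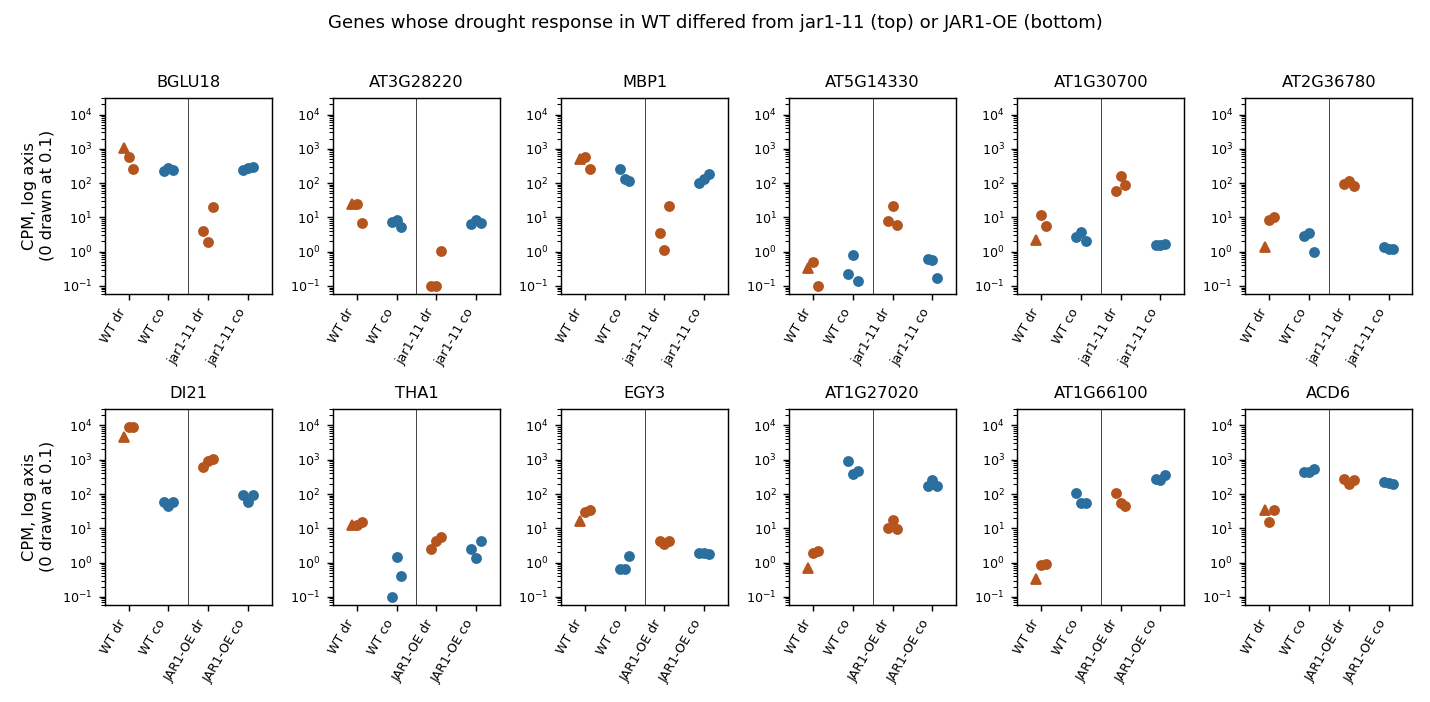
CPM, on a log axis with 0 drawn at 0.1, of the genes with the most positive and most negative differences of drought response, WT to the left of jar1-11 (top row) or JAR1-OE (bottom row), and drought to the left of control within each line; each point is 1 library and triangles mark D4 of WT. BGLU18 is at 259 CPM or more in WT drought libraries and at or below 20.0 CPM in jar1-11 drought libraries; ACD6 is at 15.6 to 34.5 CPM in WT drought libraries and at 202 to 276 CPM in those of JAR1-OE.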

How the data were processed

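Per the labels' protocols, RNA of whole rosettes went through a 3′ tag kit (QuantSeq) and single-read sequencing. The authors deposited counts, whole numbers of unique reads per gene as the file headers name them. Aligner, counter, strand setting and build were not given in the sources used here, so near-identical, overlapping and antisense genes are uncertain. The deposited files held 27655 genes and 1 transgene entry, which was left out. Gene names came from RefSeq (TAIR10.1), which matched 27445 identifiers.

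All 18 libraries were used, with TMM scaling. The filterByExpr filter passed 17678 genes and put 9977 out of the test. Models had a mean for each group in edgeR 4.0.16, under R 4.3.3. Quasi-likelihood F-tests compared drought with control in WT and gave 2 differences of response, with Benjamini-Hochberg adjustment and a threshold of 0.05. The biological coefficient of variation was 19.8%. SEs are the absolute log2 fold change over the square root of F. Folds against a group at 0 reads used a floor of 3 reads over the group, and ratios of pooled reads exact binomial 95% intervals. Floors and intervals cover counting error only.

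Named genes were the 6 largest rises and falls in mean CPM, the 6 in fold at 50 CPM or more, up to 4 called members of each list by smallest p with further members where a count was described, 3 each way per difference of response, and flower markers, of which 1 gene is not reported here. The members and the 33 lists, drawn from general knowledge, were chosen with earlier results of these data known. Lists are described by counts and medians without a set test. The alternatives tried were DESeq2 1.42.0, RLE scaling, voom in limma 3.58.1, no filter, fewer libraries, a replicate block, no organelle genes, a 1.5-fold threshold and each WT library left out. Between replicates, the chi-square divided by its degrees of freedom was 6.53 to 27.9, so none repeated another.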

Additional observations from a re-analysis of the deposited data

Results flagged for a closer look

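The 12 genes named for a difference of drought response between WT and another line are listed because the difference itself was tested (edgeR quasi-likelihood test, adjusted over 17678 genes); values are differences of log2 fold change, WT minus the other line. Against jar1-11 these were BGLU18 (6.45), AT3G28220 (6.11), MBP1 (5.55), AT5G14330 (-4.99), AT1G30700 (-4.77) and AT2G36780 (-4.72). Against JAR1-OE these were DI21 (3.76), THA1 (3.75), EGY3 (3.63), AT1G27020 (-4.56), AT1G66100 (-4.46) and ACD6 (-4.28). MBP1 stood in WT at 491, 570.4 and 263 CPM under drought, against 253, 132 and 112 CPM in controls, and in jar1-11 at 3.43, 1.09 and 21.2 CPM under drought, against 99.7, 136 and 182 CPM in controls.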

How the results depend on the processing

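In WT, 6943 genes were called, and 6930 with RLE scaling, 7042 with DESeq2, 6894 with limma-voom, 6747 without the filter, 6903 without organelle genes and 5026 with the WT libraries alone. Against a 1.5-fold threshold 3488 were called. Leaving out 1 WT library gave 5661 (without D6) to 6706 (without D4). The share of calls that were higher stayed between 40.4% and 47.1%. The difference from jar1-11 was called for 2761 genes, and for 1704 (without D4) to 2974 (without D6) with 1 library left out. The difference from JAR1-OE was called for 1062 genes, for 1645 with DESeq2, and for 578 (without D6) to 1418 (without C2) with 1 library left out, 627 being the count without D5. With the replicate block, 6457, 2120 and 801 genes were called. Deviations of same-numbered drought and control libraries correlated at 0.013, 0.043 and -0.056 across genes, against -0.058 to 0.041 for libraries of different number. These values showed no pairing by number, but with 3 libraries a group a weak pairing could be missed. The block ended the call of BGLU18 in WT (1.15, adjusted p = 0.0581, edgeR) and of no other named gene in WT or named difference of response; limma-voom ended that of the difference of AT1G30700.

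The fitted value in WT of AT5G14330, not called, was -0.41, against 0.70 without C2, 0.13 without D6 and -1.19 without D5. AT5G14330 was near the floor in WT, at 0.343, 0.502 and 0 CPM under drought, against 0.223, 0.808 and 0.140 CPM in controls. The cause of these changes was not tested. AT2G36780, not called in WT with all libraries, was called without D4 (1.99, adjusted p = 0.0393, edgeR). Calls in WT ended for MBP1 without D4, D5, C2 or C3, for MBP1 and BGLU18 with DESeq2 (adjusted p = 0.102 and 0.0708), for BGLU18 without D4, C1, C2 or C3, for MCM4 with the WT libraries alone (0.0576) and for MCM4 and PRXR1 without C1, and for TCTP, THI1, RD21B, MCM4, MBP1 and BGLU18 at the 1.5-fold threshold. Depth limits genes near the floor of 0.394 to 0.636 CPM, and with 3 libraries a side small changes can be missed.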

Other observations

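Single libraries carried sets of genes of their own at 10 CPM or more and at least 4 times every other WT library: 34 in D4, 20 of them not tested, 6 in D5, 4 in D6 and 1 in C2. D4 held VSP1, a storage protein gene induced by jasmonate, at 170.1 CPM, against at most 19.2 CPM elsewhere in WT. D5 held the glutathione transferase gene GSTU3 at 31.8 CPM, the transporter gene ABCG40 at 31.4 CPM and the kinase genes MAPKKK21 and MAPKKK19 at 16.7 and 11.3 CPM, each at most 7.09 CPM elsewhere. D6 held the LEA domain gene AT2G42560 at 286 CPM, against at most 69.2 CPM elsewhere, and the metallothionein gene AtMT4a at 16.6 CPM, against at most 2.23 CPM. D6 was also the highest drought library for 130 of the 212 genes that rose by at least 4 on the log2 scale (61.3%), with 53 for D5 and 29 for D4.

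Some transcripts had reads in drought libraries and in no control, and were picked after their values were seen. Under drought, the RING/U-box gene AT1G24580 was at least 80.7-fold higher, the LEA gene AT3G15670 at least 40.1-fold, the plastid protease gene FTSH6 at least 22.1-fold and HVA22B, an ABA-induced gene family member, at least 9.58-fold. In the other direction, AT1G50040 was at least 60.1-fold lower and the carnitine transporter family gene OCT3 at least 17.6-fold lower.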
